A study of Homo sapiens with 6 samples.

Results

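The genes described here were 45 nephron transporters, channels, endocytic receptors and brush border enzymes, measured by RNA-seq in HK-2 cells with and without TGF-β1. They were chosen by name, as genes known for reabsorption, secretion or surface enzymes along the nephron. The rule uses no value of these libraries, but the list was drawn up with earlier results of these data known, so its share of calls is a description. The set made up 45 of the 41497 named entries of the count tables, each gene taken from its row on a primary chromosome. HK-2 is an immortalized line of human proximal tubular epithelial cells, and it is a single line grown on plastic, so the groups are samples of 1 line and not of several kidneys. The 3 control libraries came from wild-type (WT) HK-2 cells left untreated, and the 3 TGF-β1 libraries from wild-type HK-2 cells given TGF-β1, both at 24 hours. All cells were grown with fetal bovine serum in the medium. The study's methods describe TGF-β treatment in serum-free medium, and whether the control cells were then also without serum is not stated, so a change of serum and the cytokine cannot be told apart if they were not. The question addressed was which of these genes HK-2 cells express at all and which change after TGF-β1.

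The proximal tubule reclaims most of the water, glucose, amino acids, phosphate and bicarbonate that the glomerulus filters. Sodium-coupled carriers and peptidases sit in its brush border, the receptors megalin and cubilin take up filtered protein, and the basolateral sodium pump supplies the gradient that drives the carriers. TGF-β1 is a cytokine that signals through SMAD transcription factors and is known for loss of epithelial characters in tubular cells.

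HK-2 cells expressed 18 of the 45 members at 1 TPM or more (TPM, a length-scaled transcript level), and most of the members that could be tested changed. Of the 45 members, 5 had no read in any library, 17 had reads but stayed under the count filter, and 23 were tested. After TGF-β1, 13 of the 23 fell and 6 rose at an adjusted p under 0.05 by edgeR's quasi-likelihood test, while 22.1% of all genes tested fell and 22.2% rose. Scaled by total counts only, which lowered the median change of all genes tested by 0.11 on the log2 scale, 13 fell and 4 rose, where 4590 of all genes fell and 2134 rose in place of 3288 and 3294. In either direction 82.6% of the tested members were called, beside 44.3% of all genes tested. The members that fell included DAB2, the brush border peptidase DPP4, carbonic anhydrase CA2 and the carnitine carrier SLC22A5, and those that rose included the water channels AQP1 and AQP3. The median log2 fold change of the tested members was -0.55, beside 0.01 over all genes tested. At a change of 2-fold or more, 3 members rose (AQP1, AQP3 and SLC6A13) and 3 fell (SLCO4C1, AMN and CA12), where 3.68% of all genes tested rose and 5.38% fell by that much (9.06% in either direction). The libraries of the groups did not overlap for 20 of the 23, beside 55.6% of all genes tested. Some of the 23 passed the filter on low counts only because of the group in which they were high, namely AQP1, AQP3, SLC6A13 and CUBN in the TGF-β1 libraries and SLCO4C1 and CA12 in the control libraries. The direction of these 6 was thus set by the filter, and 5 of them are among the 6 members that changed 2-fold. Of the 16 members that passed the filter in each group on its own, 11 fell, 2 rose and 3 were not called. The shares among all genes that passed in each group were not computed, so this count is a description.

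**Figure D1:**
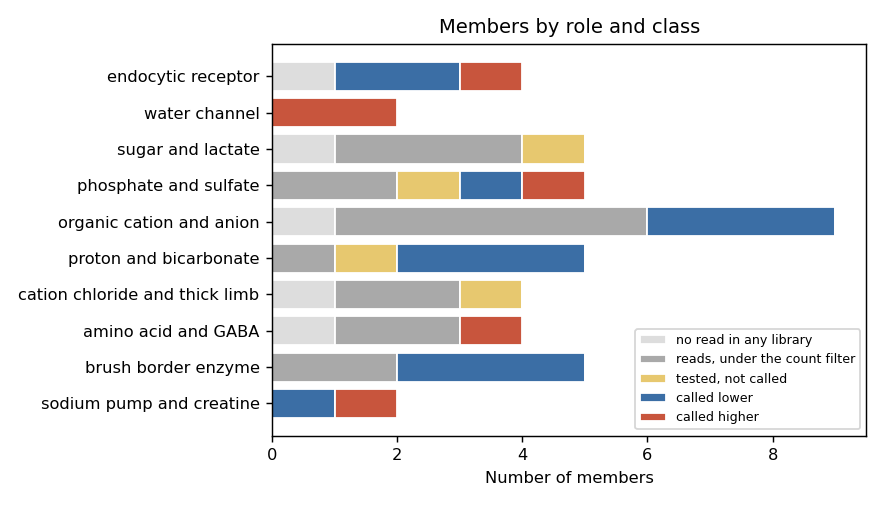
Number of members by role (rows) and by class (colors), where under the count filter means too few reads to enter the test and called means an adjusted p under 0.05. All 3 tested organic cation and anion carriers and all 3 tested brush border enzymes are in the blue class, lower after TGF-β1, and both water channels are in the red class. SLCO4C1 passed the filter only through the control libraries, and the water channels only through the TGF-β1 libraries.

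Total counts per library were 22.0 to 23.7 megacounts (M) for the control group and 21.9 to 26.9 M for the TGF-β1 group. TGF-β1 replicate 1 stood apart from its group: over all genes, the chi-square difference per gene was 18.1 and 16.7 between it and the other TGF-β1 libraries, and 4.22 to 5.88 for every other pair within a group. Without that library 13 members fell and 6 rose, with SLC12A3 in place of CA12 among the former and SLC12A2 in place of CUBN among the latter. The labels do not say whether the libraries of a group came from separate cultures, so p-values here measure the spread between these samples, which may be technical. In RNA from whole cultures, fewer cells that express a gene and less RNA per cell cannot be told apart. Levels are given in TPM, which are per length and can be compared between genes, and changes as fitted log2 fold changes with their standard error (SE).

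The members at 1 TPM or more in a group numbered 18, of which 11 fell, 4 rose and 3 were not called. AQP1 and AQP3 reached that level only after TGF-β1 and AMN only in control, so the limit set their direction. The shares of all genes at that level that fell or rose were not computed, so these counts are a description. Together the 45 members held 741 ± 19.3 TPM in the control libraries and 568 ± 9.01 TPM after TGF-β1 (SD, n = 3). ATP1B1, the beta subunit of the sodium pump, alone made up 44.4% ± 1.27 of the control sum. Without it the sum was 412 ± 2.00 TPM in control and 319.9 ± 5.35 TPM after TGF-β1, so the groups stood apart with or without the most abundant member. Of the 9 members at 10 TPM or more in control, 7 fell (ATP1B1, GGT1, CA2, DAB2, DPP4, SLC22A4 and SLC22A5) and 2 rose (SLC20A1 and GATM), where 21.6% of all genes at that level fell and 26.9% rose.

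**Figure D2:**
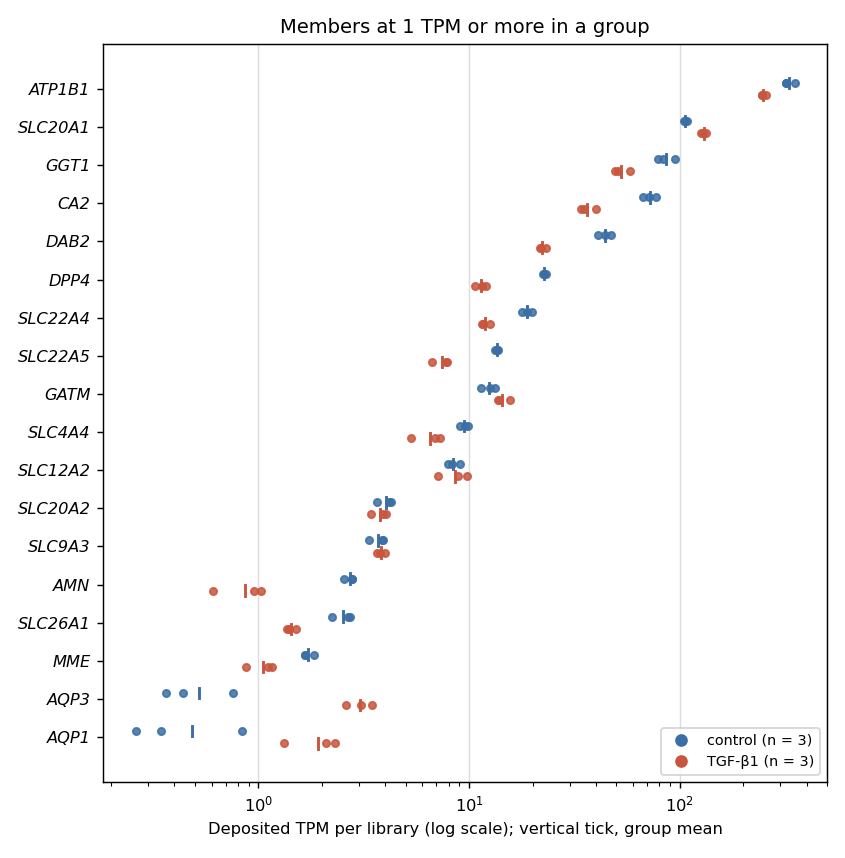
Deposited TPM per library (log axis) for the 18 members at 1 TPM or more in a group, ordered by control mean; points are libraries (blue, control; red, TGF-β1; n = 3 each) and ticks are group means. From ATP1B1 down to SLC22A5 the red points lie left of the blue ones except for SLC20A1. AQP3 and AQP1, at the bottom, lie under 1 TPM in control and above 1 TPM after TGF-β1.

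Among the endocytic receptors, the adaptor DAB2 and the membrane anchor AMN fell, and the large receptors had few reads or none. LRP2, which encodes megalin, the main receptor for filtered protein, had 0 reads in all 6 libraries. CUBN, which encodes its partner cubilin, had 13, 10 and 11 reads in the control libraries and 23, 18 and 20 in the treated ones. These were 0.114 ± 0.0186 TPM and 0.186 ± 0.0220 TPM (SD, n = 3), and the log2 fold change was 0.82 ± 0.27 (adjusted p = 0.0308). CUBN passed the filter only through the TGF-β1 libraries, so the filter set its direction. The call was lost in 7 of 14 other analyses, among them those without control replicate 2 or 3 and without TGF-β1 replicate 1 or 3, with an adjusted p of up to 0.229 over them. AMN encodes amnionless, the protein that anchors cubilin in the membrane, and had 2.56, 2.79 and 2.79 TPM in control and 0.609, 0.959 and 1.03 TPM after TGF-β1. Its highest TGF-β1 library thus lay below its lowest control library, and it fell to 34.4% of control (log2 fold change -1.54 ± 0.20, adjusted p = 9.56e-05). Of the exonic bases of AMN, 19.5% overlap CDC42BPB on the other strand, whose own log2 fold change was -0.10 (adjusted p = 0.282); whether reads were counted by strand is not stated, so the part of CDC42BPB reads in the AMN counts was not tested. DAB2, an adaptor that links these receptors to clathrin and also binds SMAD proteins, had 43.9, 41.1 and 47.0 TPM in control and 21.8, 23.2 and 21.7 TPM after TGF-β1. It fell to 54.9% of control (log2 fold change -0.86 ± 0.06, adjusted p = 1.32e-06), and its groups did not overlap.

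DAB2 was also the single tested member whose promoter held the letters GTTAAT. The promoter windows were the 250 bases before the RefSeq start (GRCh38.p14), found for 38 of the 45 members, and 4 motifs were searched on both strands: CAGAC (bound by SMAD3 and SMAD4), GTTAAT (read here as letters only), CAAAGTC (bound by HNF4A) and TGANTCA (AP-1). A match is a description of the letters and not a binding site. For 27 of the 38, the RefSeq start lay within 100 bases of the start listed with the counts. GTTAAT stood in 5 of the 38 members, DAB2, SLC22A6, SLC34A1, SLC5A1 and SLC6A19, beside 6.23% of all 35116 windows. The other 4 of these 5 were among the 17 members with a window that were not tested. The DAB2 window (chr5:39424981-39425230, minus strand) is shown for its GTTAAT 94 bases before the start and its CAGAC matches at 63 and 220 bases, with matches in capitals.
DAB2: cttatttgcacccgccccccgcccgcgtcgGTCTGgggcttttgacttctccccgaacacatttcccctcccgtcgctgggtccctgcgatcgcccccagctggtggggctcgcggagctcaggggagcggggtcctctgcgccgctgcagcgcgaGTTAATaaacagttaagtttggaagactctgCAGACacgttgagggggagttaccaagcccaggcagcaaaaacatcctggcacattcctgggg

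Both water channels rose from very low levels, and both passed the filter only through the TGF-β1 libraries. AQP1 (chr7:30911853-30925516, plus strand), the constitutive water channel of the proximal tubule and thin descending limb, had 5, 7 and 16 reads in the control libraries and 56, 28 and 39 after TGF-β1. The groups did not overlap, the mean level went from 0.483 ± 0.312 to 1.91 ± 0.525 TPM (SD, n = 3), and the log2 fold change was 2.10 ± 0.39 (adjusted p = 0.00148), or 2.73 without control replicate 3, its highest control library. AQP3 (chr9:33441154-33447596, minus strand), a water and glycerol channel best known from the basolateral membrane of the collecting duct, had 6, 11 and 5 reads in control and 53, 53 and 35 after TGF-β1. Its level went from 0.521 ± 0.207 to 3.05 ± 0.428 TPM, with a log2 fold change of 2.64 ± 0.29 (adjusted p = 2.72e-05), the largest rise among the tested members. After the rise both stayed low beside ATP1B1 or SLC20A1. The windows of the 2 channels are shown because these were the members with the largest rises (chr7:30911603-30911852, plus strand, and chr9:33447594-33447843, minus strand). AQP1 holds CAGAC in capitals at 125 and 104 bases before the start, and AQP3 holds none of the 4 motifs in this window.
AQP1: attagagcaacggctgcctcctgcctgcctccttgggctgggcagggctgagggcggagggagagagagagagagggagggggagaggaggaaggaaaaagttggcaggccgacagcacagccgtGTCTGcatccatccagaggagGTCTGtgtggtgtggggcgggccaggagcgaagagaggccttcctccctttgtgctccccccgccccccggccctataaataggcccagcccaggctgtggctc
AQP3: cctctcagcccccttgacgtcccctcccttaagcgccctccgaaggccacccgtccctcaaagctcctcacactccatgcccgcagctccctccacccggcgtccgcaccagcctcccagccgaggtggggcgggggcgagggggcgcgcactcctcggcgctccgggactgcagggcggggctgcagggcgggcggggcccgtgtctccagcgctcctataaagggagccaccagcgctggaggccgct
CAGAC stood in 3 of 6 members that rose and in 6 of the 12 with a window that fell, beside 38.0% of all windows. GATM is among these 3, and the RefSeq start of its window lies 23683 bases from the start listed with the counts.

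The brush border enzymes that HK-2 cells expressed all fell. GGT1, the gamma-glutamyl transferase that splits glutathione, had 79.1, 95.1 and 83.4 TPM in control and 58.1, 50.8 and 49.4 TPM after TGF-β1 (log2 fold change -0.58 ± 0.09, adjusted p = 0.000624). Reads of its near relatives GGT2, GGTLC2, GGTLC3 and GGT5 numbered 0 to 3 per gene and group. DPP4, the dipeptidyl peptidase that clips peptides such as incretins, had 22.6, 22.5 and 23.1 TPM in control and 11.5, 10.7 and 12.0 TPM after TGF-β1, a fall to 54.4% of control (log2 fold change -0.88 ± 0.07, adjusted p = 2.85e-06). Its control libraries lay within 1 TPM of each other. MME, neprilysin, was much lower, at 1.66, 1.67 and 1.84 TPM in control and 0.870, 1.162 and 1.11 TPM after TGF-β1 (log2 fold change -0.60 ± 0.14, adjusted p = 0.00470). The other 2 enzymes of this group were hardly read: ANPEP, aminopeptidase N, had 3 reads in each group of libraries and ALPL, tissue-nonspecific alkaline phosphatase, had 4 in the control libraries and 8 in the TGF-β1 ones.

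Every tested carrier of organic ions fell, of which SLCO4C1 passed the filter only through the control libraries, so the filter set its direction. The renal drug carriers of the proximal tubule were not detected or nearly so, and SLC22A2 of this group is given with the other low members. SLC22A5, the carnitine carrier OCTN2, had 13.7, 13.5 and 13.3 TPM in control and 6.69, 7.83 and 7.75 TPM after TGF-β1 (log2 fold change -0.75 ± 0.09, adjusted p = 4.35e-05). SLC22A4, the ergothioneine carrier OCTN1, had 17.9, 18.8 and 19.97 TPM in control and 11.5, 11.6 and 12.6 TPM after TGF-β1 (log2 fold change -0.55 ± 0.08, adjusted p = 0.000198). These are neighbors on chromosome 5, 25505 bases apart, and both shared exonic bases with MIR3936HG on the other strand (8.22% of SLC22A4 and 2.16% of SLC22A5), which itself fell (log2 fold change -1.27, adjusted p = 0.00836); its part in their fall was not tested. SLCO4C1, the organic anion carrier of the basolateral membrane known to carry digoxin, had 36, 29 and 35 reads in control and 11, 14 and 8 after TGF-β1. It fell to 32.8% of control, the largest fall among the tested members (log2 fold change -1.61 ± 0.26, adjusted p = 0.000520). SLC22A6, the anion carrier OAT1, had 0 reads, SLC22A8 (OAT3) had 2 reads in all, and the efflux carriers SLC47A1 (MATE1) and SLC47A2 (MATE2-K) had 1 and 6. SLC13A3, which carries dicarboxylates, had 2 reads in the control group and 3 in the TGF-β1 group.

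Carriers of phosphate and sulfate did not move together. SLC20A1, the sodium-phosphate carrier PiT-1 found in nearly all cells, had 108, 105 and 104 TPM in control and 127, 129 and 134 TPM after TGF-β1 (log2 fold change 0.41 ± 0.05, adjusted p = 8.19e-05), and its groups did not overlap. Its relative SLC20A2 (PiT-2) had 4.15, 4.25 and 3.66 TPM in control and 3.43, 3.91 and 4.03 TPM after TGF-β1, with a 95% interval of the log2 fold change from -0.17 to 0.23 (adjusted p = 0.830). SLC26A1, a sulfate and oxalate exchanger of the basolateral membrane, had 2.23, 2.65 and 2.72 TPM in control and 1.36, 1.39 and 1.52 TPM after TGF-β1 (log2 fold change -0.71 ± 0.16, adjusted p = 0.00433). It shares 4.22% of its exonic bases with IDUA on the other strand, whose log2 fold change was -0.53 (adjusted p = 0.0221), and the part of IDUA in it was not tested. The brush border phosphate carriers of the proximal tubule, SLC34A1 and SLC34A3, stayed under the filter and are given with the other low members.

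In the proton and bicarbonate group, 3 of 4 tested members fell, of which CA12 passed the filter only through the control libraries. CA2, the cytosolic carbonic anhydrase, had 77.1, 66.8 and 71.4 TPM in control and 33.8, 40.0 and 35.2 TPM after TGF-β1, a fall to 54.9% of control (log2 fold change -0.86 ± 0.08, adjusted p = 7.82e-06). SLC4A4, the basolateral sodium-bicarbonate carrier NBCe1, had 9.52, 9.10 and 9.87 TPM in control and 5.32, 6.86 and 7.31 TPM after TGF-β1 (log2 fold change -0.43 ± 0.09, adjusted p = 0.00318), the lowest value being in TGF-β1 replicate 1. CA12, a membrane-bound carbonic anhydrase, had 11, 13 and 14 reads in control and 4, 4 and 7 after TGF-β1 (log2 fold change -1.32 ± 0.40, adjusted p = 0.0204). That call was lost in 5 of 14 other analyses, among them those without control replicate 2 or 3 and without TGF-β1 replicate 1 or 2, with an adjusted p of up to 0.155. SLC9A3, the brush border sodium-proton exchanger NHE3, had 3.37, 3.89 and 3.88 TPM in control and 3.78, 3.99 and 3.67 TPM after TGF-β1. On the scale of the fit its log2 fold change had a 95% interval from -0.06 to 0.37 (adjusted p = 0.268). Of its exonic bases, 31.4% lie in the entry PP7080 on the same strand, which had 0 reads, and 8.10% in SLC9A3-AS1 on the other strand, which fell (log2 fold change -0.47, adjusted p = 0.0223); their part in the SLC9A3 counts was not tested. CA4, the membrane carbonic anhydrase of the brush border, had 1 read in each group of libraries.

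The sodium pump and the creatine pathway gave small changes at high levels. ATP1B1 had 318, 319 and 349.8 TPM in control and 245, 255 and 244 TPM after TGF-β1, and it fell to 81.9% of control (log2 fold change -0.29 ± 0.05, adjusted p = 0.00106). It shares 8.53% of its exonic bases with NME7 on the other strand, which went the other way (log2 fold change 0.29, adjusted p = 0.00372). Another beta subunit of the pump, ATP1B3, rose by a log2 fold change of 0.27 ± 0.06 (adjusted p = 0.00369). GATM, the first enzyme of creatine synthesis, had 11.3, 12.5 and 13.3 TPM in control and 13.7, 13.9 and 15.7 TPM after TGF-β1 (log2 fold change 0.33 ± 0.09, adjusted p = 0.00988). The lowest TGF-β1 value of GATM lay just above the highest control value.

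**Figure D3:**
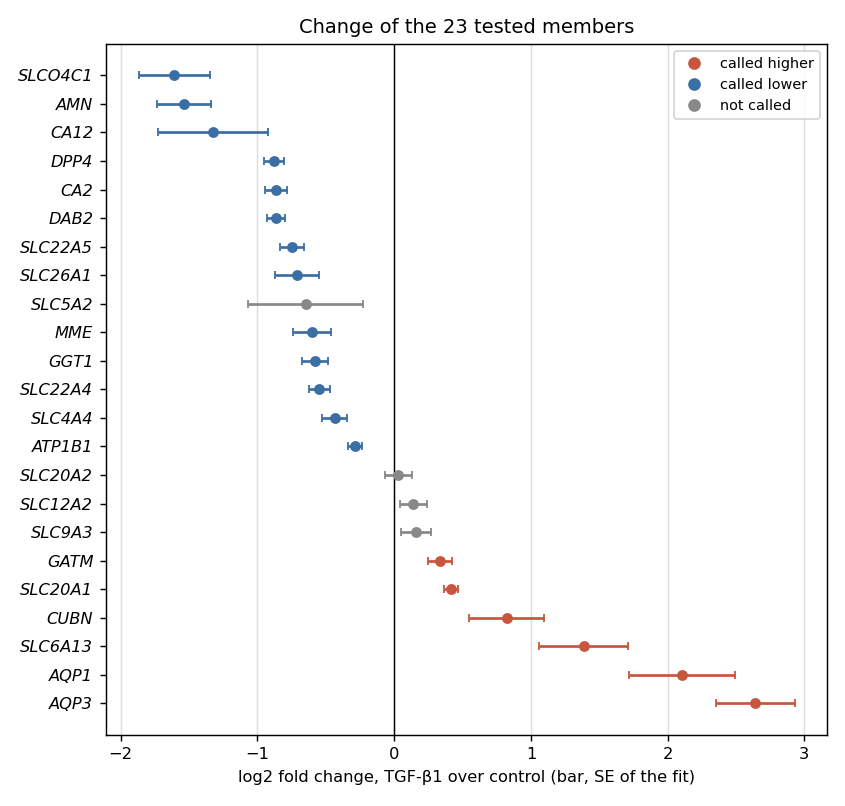
Fitted log2 fold change (TGF-β1 over control, horizontal axis) of the 23 tested members, ordered by size; bars are 1 SE of the fit and colors give the call at an adjusted p under 0.05. The 13 members called lower run from SLCO4C1 at -1.61 to ATP1B1 at -0.29, and the 6 called higher from GATM at 0.33 to AQP3 at 2.64.

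Amino acid, sugar and chloride carriers of the nephron were mostly silent. SLC6A13, the GABA and betaine carrier GAT2, had 7, 7 and 6 reads in control and 18, 15 and 20 after TGF-β1. It passed the filter only through the TGF-β1 libraries, so the filter set its direction. Its log2 fold change was 1.38 ± 0.33 (adjusted p = 0.00559), a call that DESeq2 did not make (adjusted p = 0.0623). SLC6A19, the neutral amino acid carrier B0AT1, had 0 reads. The partners of the cystine carrier, SLC3A1 and SLC7A9, had 17 and 2 reads in control and 18 and 5 after TGF-β1, and 65.7% of the exonic bases of SLC3A1 overlap PREPL on the other strand, a gene with 2136 and 1858 reads. SLC5A2, the glucose carrier SGLT2 that gliflozin drugs block, had 9, 17 and 10 reads in control and 6, 12 and 5 in the treated libraries, which overlapped (95% interval of the log2 fold change from -1.47 to 0.17, adjusted p = 0.237). Of its exonic bases, 22.7% overlap RUSF1 on the other strand, whose log2 fold change was -0.03 (adjusted p = 0.814). SLC5A1 (SGLT1), SLC5A10 (a mannose and fructose carrier) and the lactate carrier SLC5A12 had 2, 2 and 0 reads over all 6 libraries. SLC12A2, the sodium-potassium-chloride carrier NKCC1 found in most cells, was the one cation chloride carrier at a clear level, with 9.02, 8.31 and 7.90 TPM in control and 7.13, 8.86 and 9.74 TPM after TGF-β1. Its log2 fold change had a 95% interval from -0.06 to 0.34 (adjusted p = 0.286), and without TGF-β1 replicate 1, its lowest library, it was 0.23 with an adjusted p of 0.0256. The thick limb gene UMOD, uromodulin, had 0 reads and SLC12A1, NKCC2, had 5.

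Of the 17 members under the filter, 5 had groups that did not overlap, where the groups did not overlap for 12.1% of all genes under the filter with a count. A fit that kept every gene with a count called 2 of the 5, where it called 4.36% of the genes under the filter and 26.8% of all genes with a count. SLC12A3, the thiazide-sensitive sodium-chloride carrier of the distal tubule, had 6, 16 and 11 reads in control and 5, 1 and 1 after TGF-β1 (log2 fold change -2.18 ± 0.58, adjusted p = 0.00154 by edgeR). DESeq2 gave an adjusted p of 0.0532 for it, and without TGF-β1 replicate 1 its log2 fold change was -3.24. SLC22A2, the organic cation carrier OCT2, had 0 reads in every control library and 4, 7 and 3 after TGF-β1. Against a floor of 3 counts over the control group it was 4.29-fold higher, with its 14 reads after TGF-β1 taken as exact. The 95% interval of the ratio between the groups started lower, at 3.05-fold. DESeq2 gave no adjusted p for SLC22A2. The edgeR fit of every gene with a count gave a log2 fold change of 5.26 ± 1.37 (adjusted p = 0.00134). Both calls were made in all 6 fits that left out a library. SLC34A1, the main phosphate carrier of the brush border (NaPi-IIa), had 7, 3 and 4 reads in control and 2, 0 and 1 after TGF-β1 (log2 fold change -2.10, adjusted p = 0.0645, and 0.0441 without TGF-β1 replicate 1). SLC34A3 (NaPi-IIc) had 12, 13 and 9 reads in control and 5, 8 and 3 after TGF-β1 (log2 fold change -1.08, adjusted p = 0.0784, and 0.0419 without TGF-β1 replicate 2), and SLC2A2, the basolateral glucose carrier GLUT2, had 7, 9 and 15 reads in control and 7, 6 and 4 after TGF-β1 (log2 fold change -0.86, adjusted p = 0.194). An exact permutation test of single genes gave p = 0.1 for each of the 5, the smallest that 3 libraries against 3 allow. Groups that do not overlap always give this value, so the test adds nothing for these 5. The other 12 members under the filter had 18 reads or fewer in a group and overlapped between groups. A count of 0 over a group allows a level of up to 0.0442 CPM (counts scaled to the library total) in control and 0.0406 CPM after TGF-β1, taken as 3 counts of the group's total and covering counting error only.

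**Figure D4:**
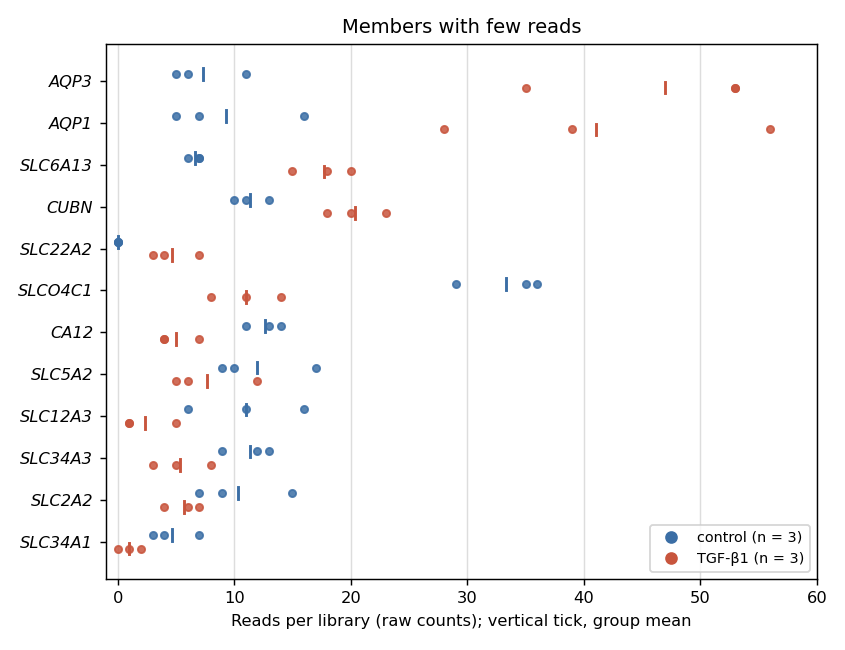
Raw reads per library for 12 members with few reads: the tested ones, and those under the count filter whose groups did not overlap; points are libraries (blue, control; red, TGF-β1; n = 3 each) and ticks are group means. AQP3 and AQP1 go from 16 reads or fewer to 28 or more, and SLC22A2 goes from 0 to between 3 and 7. The groups overlap for SLC5A2, and those of SLC2A2 meet at 7 reads before depth is taken into account.

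The members that were not tested include genes whose promoters hold the letters GTTAAT, and 3 of them are shown for these matches. SLC34A1 (chr5:177384184-177384433, plus strand) holds GTTAAT at 121 and 93 bases before its start, CAAAGTC at 53 and CAGAC at 186. SLC22A6 (chr11:62984968-62985217, minus strand) holds GTTAAT at 86 bases, and SLC6A19 (chr5:1201345-1201594, plus strand) holds GTTAAT at 122 and CAGAC at 106. Matches are in capitals, and a match on the other strand appears as its reverse complement.
SLC34A1: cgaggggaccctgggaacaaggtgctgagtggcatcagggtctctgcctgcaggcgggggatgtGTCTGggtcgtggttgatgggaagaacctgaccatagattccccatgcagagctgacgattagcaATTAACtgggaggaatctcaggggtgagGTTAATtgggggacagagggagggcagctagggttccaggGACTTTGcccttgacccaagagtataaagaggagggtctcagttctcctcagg
SLC22A6: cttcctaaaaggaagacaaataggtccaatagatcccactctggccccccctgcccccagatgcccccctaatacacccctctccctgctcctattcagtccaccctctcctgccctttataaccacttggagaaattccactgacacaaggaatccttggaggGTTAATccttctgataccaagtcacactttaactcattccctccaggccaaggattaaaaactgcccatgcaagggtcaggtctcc
SLC6A19: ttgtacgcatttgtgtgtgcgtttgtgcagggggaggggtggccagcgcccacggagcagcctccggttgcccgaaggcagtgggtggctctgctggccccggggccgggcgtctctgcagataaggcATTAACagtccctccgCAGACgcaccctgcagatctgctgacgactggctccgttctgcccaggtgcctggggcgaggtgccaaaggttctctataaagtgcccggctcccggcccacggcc
HNF4A, the factor known to bind CAAAGTC, had 0 reads in the control group and 1 in the TGF-β1 group, and its part in the members' levels was not tested. CAAAGTC stood in 3 of the 38 member windows beside 2.91% of all windows, and TGANTCA in 3 of 38 beside 6.57%.

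A second list of 85 nephron genes outside the set was read for context. It held 21 genes with no read, 24 under the filter and 40 tested, of which 13 fell, 8 rose and 19 were not called, a share called of 52.5% beside 44.3% of all genes tested. Of those at a mean of 5 CPM or more, the largest rises included those of the bicarbonate carrier SLC4A7 (log2 fold change 1.79 ± 0.08), the nucleoside carrier SLC29A1 (1.18 ± 0.06) and the anion exchanger SLC4A2 (0.69 ± 0.06). Under the same limit, the largest falls were in the urate carrier SLC2A9 (-0.87 ± 0.16), the endocytic motor MYO6 (-0.75 ± 0.07), the sulfate carrier SLC26A11 (-0.68 ± 0.09) and the inositol carrier SLC5A3 (-0.54 ± 0.15). Larger falls lay below that limit, in genes named after their values were seen: the epithelial sodium channel subunit SCNN1A (203, 225 and 226 reads in control and 16, 19 and 14 after TGF-β1, -3.74 ± 0.15), the organic anion carrier SLC17A3 (-4.86 ± 0.54), the tight junction gene CLDN16 (-1.63 ± 0.18), the proton pump subunit ATP6V0A4 (-1.42 ± 0.21) and the carbonic anhydrase CA9 (-1.39 ± 0.17). SLC17A3 had 25, 25 and 18 reads in control and 1, 0 and 1 after TGF-β1. It passed the filter only through the control libraries, which set its direction. SLC4A7 and SLC4A2 rose while the members SLC4A4, CA2 and CA12 of the proton and bicarbonate group fell, and SLC9A3 was not called. Of 6 other endocytic genes, 3 fell, MYO6 and OCRL among them, and 0 rose, where 22.1% of all genes tested fell and 22.2% rose. PDZK1, a scaffold that holds carriers in the brush border, rose by a log2 fold change of 0.31 ± 0.09 (adjusted p = 0.0153). USH1C, a scaffold that links microvilli, had 17, 12 and 12 reads in control and 7, 5 and 1 after TGF-β1. It passed the filter only through the control libraries, which set its direction (log2 fold change -1.66, adjusted p = 0.0156). DESeq2 did not call USH1C (adjusted p = 0.0734). PDZK1 and USH1C were the 2 called of the 7 tested brush border scaffolds and enzymes in that list. Of 23 genes of the distal nephron and collecting duct, 12 had no read and 5 were tested. Of these 5, 4 fell, SCNN1A, CLDN16 and ATP6V0A4 among them, where 22.1% of all genes tested fell.

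The label of proximal tubular epithelium was compared with defining markers. The kidney epithelial factor PAX8 was at 206 ± 8.03 TPM in control and 113.8 ± 5.94 TPM after TGF-β1, a log2 fold change of -0.73 (adjusted p = 8.14e-06). PAX2 also fell, from 2.94 to 1.80 TPM (log2 fold change -0.59, adjusted p = 0.0240). LHX1 went the other way, from 4.86 to 7.16 TPM (log2 fold change 0.68, adjusted p = 0.000763). The keratins KRT8 and KRT18 rose, from 723 to 1041 TPM and from 449 to 619.9 TPM (log2 fold change 0.65 and 0.58, adjusted p = 1.71e-05 and 2.09e-05). EPCAM, an epithelial adhesion gene, fell from 35.2 to 13.6 TPM (log2 fold change -1.25, adjusted p = 1.70e-06), while CDH1, which encodes E-cadherin, had 6 reads over the control libraries and 3 over the others. Among the members set as proximal tubule markers, LRP2 and SLC22A6 had 0 reads in every library. CUBN had 34 reads in the control libraries and 61 after TGF-β1, SLC5A2 had 36 and 23, and SLC34A1 had 14 and 3. Outside that set, SLC5A12 and SLC6A19 also had 0 reads, while the brush border members GGT1, DPP4 and SLC9A3 were above 1 TPM in both groups. Markers of other cell types moved between the groups as well. The 4 endothelial markers summed to 0.617 to 1.15 TPM in the control libraries and 0 to 0.0195 TPM after TGF-β1, of which CDH5 had 62 and 0 reads. The leukocyte list was carried by CD68, a lysosomal gene, which fell from 189 to 127 TPM (log2 fold change -0.44, adjusted p = 0.0116), while PTPRC had 2 reads in each group, CD3E had 0 and LYZ had 17 and 4. The podocyte list was carried by PODXL, which rose from 11.2 to 94.3 TPM (log2 fold change 3.19, adjusted p = 1.17e-10), while NPHS1 had 24 and 3 reads. Of the fibroblast markers, LUM fell from 77.0 to 58.5 TPM (log2 fold change -0.28, adjusted p = 0.00659), PDGFRB went from 39 to 413 reads (log2 fold change 3.38, adjusted p = 1.07e-07), and PDGFRA and DCN had 12 reads or fewer in each group. Their part in the members' changes was not tested.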

How the data were processed

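RNA from 3 control and 3 TGF-β1 libraries of HK-2 cells was captured on oligo(dT) beads, primed with random hexamers and sequenced as paired reads. Adapters and reads of low quality were removed by the authors, and the submitters' processing notes name hg38, CASAVA, featureCounts 2.0.1 and DESeq2 1.16.1. The aligner and the strand setting of the counting are not given in the sources used here. The deposited tables hold raw counts per gene, from which all tests were made, and TPM and FPKM values that the authors computed from the counts and gene lengths. The deposited TPM served for levels, and the deposited FPKM for a check of the tables only.

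Each table listed 42095 entries, 41497 with a name. Unnamed loci (0.396% to 0.464% of counts) were not used, and 7 records broken over lines were rejoined. All named entries were fitted together: filterByExpr of edgeR 4.0.16 (minimum count 10) kept 14860, which were scaled with TMM and compared by the robust quasi-likelihood F test (two-sided) with Benjamini-Hochberg adjustment over all genes tested. A gene was called at an adjusted p under 0.05, and 2-fold when the log2 fold change was at least 1 in size. The SE was the fold change divided by the square root of F. Members under the filter were fitted with every gene that had a count. The code was tested on simulated data.

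Alternatives were RLE scaling, total counts only, DESeq2 1.42.0, limma-voom (limma 3.58.1), other filters, glmTreat, other handling of repeated names, a block on replicate number, and 6 fits that each omitted 1 library. R 4.3.3, Python 3.11.15, pandas 2.3.3 and scipy 1.17.1 were used. The members and gene lists were chosen with earlier results of these data known. All 45 members were named, by role, with every library for those called. From the other list, the 4 largest rises and 4 largest falls among called genes at a mean of 5 CPM or more without overlap were to be named, and genes beyond these in that list (ATP1B3, OCRL, PDZK1, USH1C, SCNN1A, SLC17A3, CLDN16, ATP6V0A4 and CA9) were chosen after their values were seen. Promoters and their starts came from RefSeq (GRCh38.p14), and none is printed for SLC20A2 or CA2. Results for some genes of the other list and the marker lists are not reported here.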

Additional observations from a re-analysis of the deposited data

How the results depend on the processing

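Over 336 alternative fits of the 23 tested members, 318 kept the direction and the side of the threshold, and 15 of the 19 called members did so in every alternative that could test them. CUBN lost its call in 7, CA12 in 5, and SLC6A13 (DESeq2, adjusted p = 0.0623) and GATM (total counts only, adjusted p = 0.0616) in 1 each. SLC20A2, never called, changed sign in 3, where it was -0.077 on unscaled totals, and it ranged from -0.045 to 0.074 over the fits that each omitted 1 library (negative when control replicate 3 or, at -0.012, TGF-β1 replicate 3 was left out). With genes of a mean of at least 50 counts only, 7 members left the table and the counts became 2 higher, 0 higher by 2-fold and 1 lower by 2-fold. With glmTreat, which tests against the 2-fold limit itself, 1 rose (AQP3) and 1 fell (AMN). Unscaled totals moved the median over all genes tested (log2 fold change) from 0.01 to -0.10 and the calls over all genes to 2134 higher and 4590 lower, from 3294 and 3288, so small changes such as that of GATM depend on the scaling. With limits of 0.5 and 2 TPM, 21 and 16 members were expressed. The replicate number as a block left 6 members higher and 13 lower and changed no member's call. The labels share numbers between the groups, but the deviations of same-numbered libraries correlated at only 0.111, -0.0117 and 0.0762, so the numbers were not taken to pair the samples. Members under about 10 reads a library are limited by depth.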
